A study of Homo sapiens with 6 samples.

Results

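The human ADAM, ADAMTS, ADAMTS-like (ADAMTSL) and MMP genes and the TIMP genes, which encode tissue inhibitors of metalloproteases, were examined in definitive endoderm (DE) cells made with or without saracatinib (SAR). Members were taken by symbol alone, as ADAM, ADAMTS, ADAMTSL or MMP followed by a number, or TIMP1 to TIMP4. Of the 40396 genes with a value in at least 1 library, 70 were members: 20 ADAM, 19 ADAMTS, 5 ADAMTSL, 22 MMP and 4 TIMP genes. A mean of at least 0.5 FPKM (fragments mapped to a gene, scaled to its exon length and to the size of the library) over all libraries was reached by 42 members, which were tested with 16371 genes in all, and 28 members stayed under it. ADAM5 and ADAM6 were not analysed here.

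Cells of the human embryonic stem cell line H1 were differentiated for 3 days on Matrigel in medium with B27, Glutamax and activin A at 50 ng/mL, and the GSK3 inhibitor CHIR99021 was present at 2.5 µM during only the first 24 h. The SAR group received 0.5 µM SAR, a small-molecule kinase inhibitor, for all 3 days, and the control group received the same volume of DMSO. Poly(A) RNA was sequenced in 3 libraries per group. The sources used here do not say whether the 3 came from separate cultures, so every p-value measures only the spread between these libraries, which may be technical, and all of them came from 1 cell line at 1 dose and 1 time.

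ADAMs are membrane-anchored zinc proteases that release the outer parts of growth factors, receptors and adhesion molecules from the cell surface, and several of them lack the active-site motif and act as binding proteins. ADAMTSs are secreted relatives that cut proteoglycans, procollagens and fibrillin-associated proteins, and the ADAMTSL proteins share their accessory domains without the protease. MMPs are secreted or membrane-type proteases of collagens and other matrix proteins, and TIMPs block MMPs, with TIMP3 also blocking ADAM and ADAMTS enzymes. Gastrulating cells, which DE cells model, move through and remodel matrix.

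The libraries rested on an estimated 16681280 to 24419937 reads, recovered from the FPKM values with their scale set by annotated exon lengths. All 12 DE markers were detected, with a summed level of 4018 to 5124 FPKM in control and 2105 to 2162 FPKM in SAR libraries, most of it from CER1. Among them 4 were higher with SAR (SOX17, FOXA2, KIT and HHEX) and 7 were lower (CXCR4, GATA6, GATA4, EOMES, GSC, CER1 and MIXL1). By the adjusted p and fold thresholds given below, 3 of the 12 were upregulated and 5 downregulated. The 10 mesoderm markers summed to 20.1 to 21.0 FPKM in control and 26.2 to 29.9 FPKM in SAR libraries, with TBXT and TBX6 higher and KDR lower. The 7 pluripotency markers summed to 304.3 to 429.5 FPKM in control and 399.9 to 432.8 FPKM in SAR libraries, with SOX2 higher and NANOG lower. The 6 neural ectoderm markers summed to 54.4 to 68.8 FPKM in control and 64.8 to 81.7 FPKM in SAR libraries, with OTX1 higher. SOX1 and PAX6 were under the minimum level and went opposite ways. SOX1 had 0 reads in all control libraries and 0, 3 and 7 reads in SAR replicates 1, 2 and 3. PAX6 had 48, 50 and 24 reads in the control libraries and 1 read in each SAR library. The part of these markers in the results on the proteases was not tested, and in bulk RNA fewer cells of a type and less RNA per cell cannot be told apart. Control replicate 1 listed 33169 genes above 0 FPKM against 29506 to 30109 in the other libraries. It was the highest library in 8 tested members, and it is named below for only some of the values that it sets.

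ADAM19, TIMP3, ADAM9, ADAMTS1, ADAM10 and ADAMTS4 were lower with SAR, and 13 members led by ADAMTS16 and ADAMTSL5 were higher. With an adjusted p under 0.05 and a log2 fold change beyond 1 in either direction, the thresholds of the study, 2 members were upregulated (ADAMTS16 and ADAMTSL5) and 1 was downregulated (ADAM19). These thresholds upregulated 3.41% and downregulated 1.58% of all tested genes. Without a minimum fold, 13 of 42 members were higher and 6 were lower, against 23.7% and 9.55% of all tested genes. The 3 SAR libraries lay entirely above the 3 control libraries in 18 members and entirely below them in 9, while 50.7% of all tested genes had no overlap in one direction or the other. The median log2 fold change was 0.19 over the tested members and 0.12 over all tested genes. After a median-ratio rescaling of the libraries, these medians were 0.06 and -0.02, and 12 members were higher and 9 lower, with MMP11 lost and ADAM17, ADAMTS18 and MMP14 gained. Over all tested genes this rescaling gave 2059 higher and 2537 lower in place of 3885 and 1563. Of the 19 members that passed, 17 did so whichever library was left out, and without control replicate 1 there were 14 higher and 6 lower. Fold changes were fitted by limma to log2(FPKM + 0.1), which understates the change of low genes, and adjusted p-values are limma's with Benjamini-Hochberg adjustment over all tested genes.

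**Figure D1:**
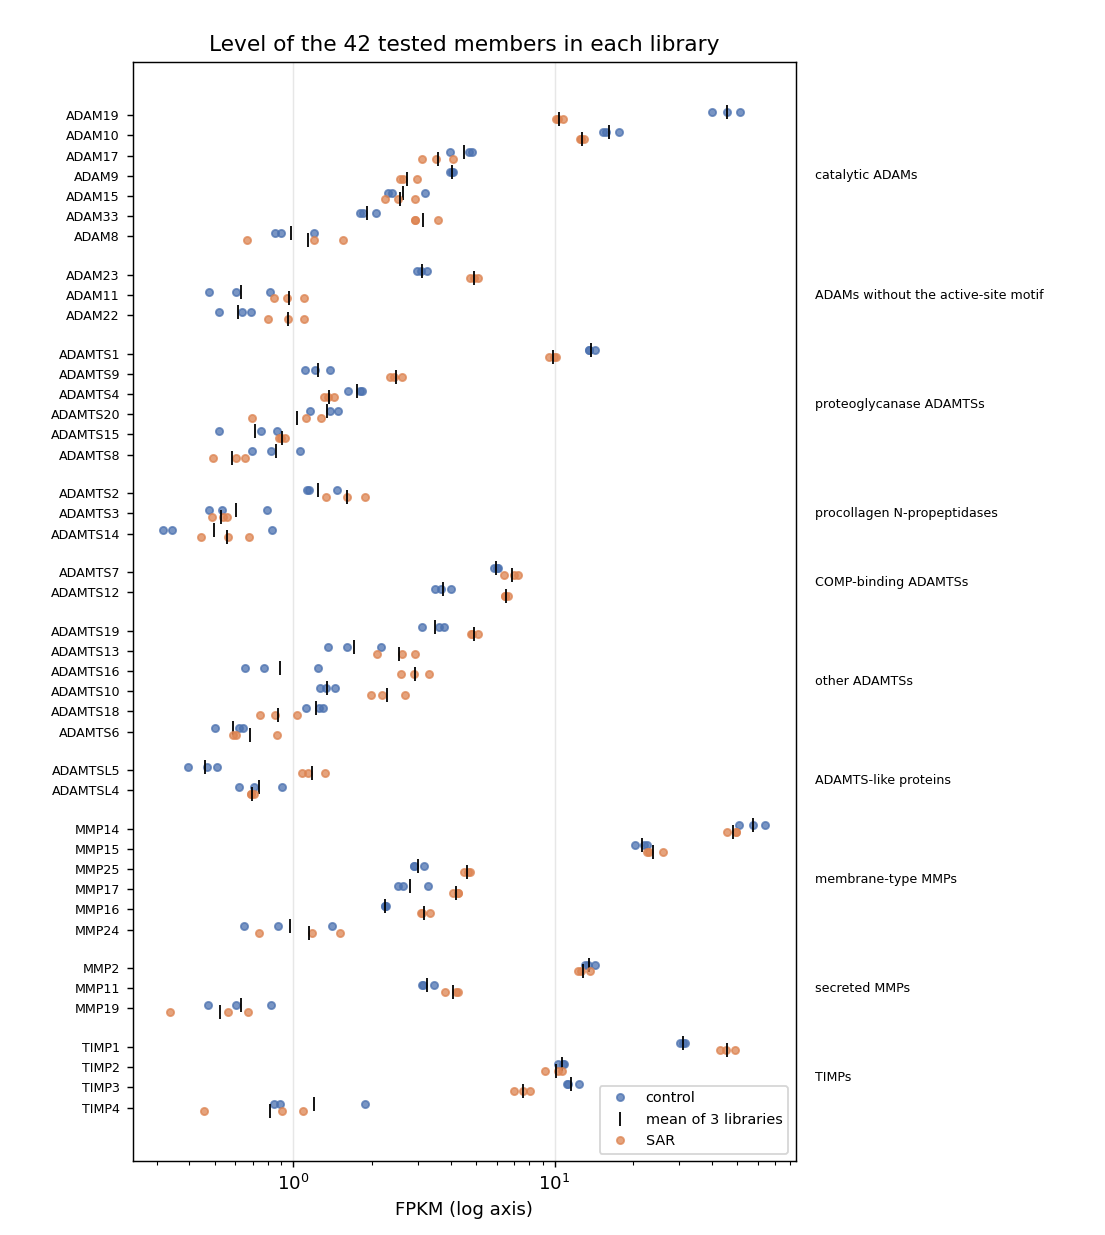
FPKM on a log axis of the 42 tested members, grouped by role, with 1 point per library (blue control, orange SAR) and a black bar at the mean of each group's 3 libraries. ADAM19 shows the widest gap between the groups, and MMP14, TIMP1 and MMP15 are among the highest in both.

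MMP14, TIMP1 and ADAM19 had the highest mean levels of all 70 members, at 52.9, 38.4 and 28.1 FPKM over the 6 libraries, followed by MMP15 at 22.7, ADAM10 at 14.5, MMP2 at 13.2, ADAMTS1 at 11.8, TIMP2 at 10.4, TIMP3 at 9.57 and ADAMTS7 at 6.44 FPKM. These 10 genes held 76.3% to 81.7% of the summed member FPKM in control and 71.5% to 72.8% in SAR libraries. The groups did not overlap in this share. ADAM19 alone held 14.4% to 17.3% of the summed member FPKM in control and 3.8% to 4.2% in SAR libraries.

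The catalytic ADAMs held the largest decrease. ADAM19 (meltrin beta), a sheddase of neuregulins known from heart development, stood at 40.0, 51.5 and 45.7 FPKM in control replicates 1, 2 and 3 and at 10.3, 10.8 and 10.1 FPKM in SAR replicates 1, 2 and 3. Every SAR library thus lay far below every control library, and the ratio of the means was 0.227. It fell by 2.12 on the log2 scale (SE 0.0933, adjusted p = 9.8e-05), and it stayed downregulated in every alternative run, from -2.26 after median-ratio rescaling to -2.03. The gene (ENSG00000135074) spans chr5:157395534-157575775 on the minus strand of GRCh38 in GENCODE release 29, and 1320 to 9683 reads lay behind each value.

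The 250 bases before the RefSeq starts of ADAM19, the member with the largest change, and of ADAMTSL5, an upregulated member that also has a RefSeq promoter entry, are shown 5′ to 3′ (GRCh38.p14), with each CpG in capitals. The ADAM19 sequence lies at chr5:157575776-157576025 on the minus strand, and that of ADAMTSL5 at chr19:1513020-1513269 on the minus strand, inside the wider GENCODE span of that gene.
ADAM19: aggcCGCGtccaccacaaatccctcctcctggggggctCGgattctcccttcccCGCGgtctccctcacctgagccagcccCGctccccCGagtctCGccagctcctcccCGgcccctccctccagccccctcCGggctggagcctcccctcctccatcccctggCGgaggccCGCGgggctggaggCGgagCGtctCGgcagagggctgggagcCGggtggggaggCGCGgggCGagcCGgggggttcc
ADAMTSL5: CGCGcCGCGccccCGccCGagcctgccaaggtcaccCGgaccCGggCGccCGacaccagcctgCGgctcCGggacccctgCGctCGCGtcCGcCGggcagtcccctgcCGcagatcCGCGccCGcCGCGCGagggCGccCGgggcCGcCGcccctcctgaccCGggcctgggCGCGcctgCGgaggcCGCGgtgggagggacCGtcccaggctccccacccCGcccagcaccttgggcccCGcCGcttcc
Of these bases, 76.4% were G or C in ADAM19 and 83.2% in ADAMTSL5, with 21 and 38 CpGs, against medians of 58% and 11 CpGs over the 35116 promoters of the table. Neither window held the AP-1 or the TEAD motif described further on.

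ADAM10, the main sheddase of Notch receptors and cadherins, stood at 15.3, 17.6 and 15.8 FPKM in the control libraries and at 13.01, 12.53 and 12.64 FPKM with SAR. The groups did not overlap, and the log2 fold change was -0.34 (SE 0.0669, adjusted p = 0.00999), well within the fold threshold. ADAM9, an ADAM that sheds several growth factors and binds integrins, stood at 4.04, 4.10 and 3.99 FPKM in control and at 2.62, 2.57 and 2.97 FPKM in SAR libraries. Its control libraries were nearly equal and all above the SAR libraries, with a log2 fold change of -0.56 (SE 0.0791, adjusted p = 0.00352). ADAM33, known from airway smooth muscle, went the other way, from 2.07, 1.85 and 1.81 FPKM to 2.92, 2.92 and 3.57 FPKM (log2 fold change 0.68, SE 0.109, adjusted p = 0.00505).

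For ADAM17, which releases TNF and ligands of the EGF receptor, the values were 3.98, 4.84 and 4.72 FPKM in control and 3.11, 3.52 and 4.09 FPKM in SAR libraries. SAR replicate 3 reached above control replicate 1, and the log2 fold change of -0.33 did not pass (adjusted p = 0.0753), although it passed after median-ratio rescaling (adjusted p = 0.0383). Of its exon bases 13.6% also lie in genes on the opposite strand. ADAM15 (log2 fold change -0.03) and ADAM8 (0.14) did not pass and overlapped between groups, with 95% intervals of -0.39 to 0.33 and of -0.56 to 0.84. Thus 3 of 7 tested catalytic ADAMs were lower and 1 was higher, with a median log2 fold change of -0.33. Over all tested genes 9.55% were lower and 23.7% higher, with a median of 0.12. Of the 12 catalytic ADAMs, ADAM12, ADAM20, ADAM21, ADAM28 and ADAM30 were under the minimum level.

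The tested ADAMs without the active-site motif were ADAM23, ADAM22 and ADAM11, which are best known as neural binding partners of the secreted protein LGI1. All 3 lay higher in every SAR library than in any control library, as did 5815 of all 16371 tested genes. ADAM23 stood at 3.24, 2.98 and 3.08 FPKM in control and at 4.92, 4.74 and 5.10 FPKM in SAR libraries, and it rose by 0.65 on the log2 scale (SE 0.0686, adjusted p = 0.00138). ADAM22 stood at 0.635, 0.518 and 0.690 FPKM against 0.803, 0.959 and 1.10 FPKM, and ADAM11 at 0.816, 0.476 and 0.605 FPKM against 0.947, 0.846 and 1.10 FPKM. Both had a log2 fold change of 0.56 and did not pass (adjusted p = 0.0648 and adjusted p = 0.0954). The other 5 ADAMs of this kind (ADAM2, ADAM7, ADAM18, ADAM29 and ADAM32) were under the minimum level.

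Summed over all 20 ADAM genes, the level was 76.3, 87.7 and 80.3 FPKM in the control and 42.1, 43.1 and 45.9 FPKM in the SAR libraries, given as values with no test. ADAM19 supplied 52.4% to 58.7% of this sum in control and 22.1% to 25.0% in SAR libraries. The catalytic ADAMs other than ADAM19 summed to 30.2 to 32.1 FPKM in control and 25.0 to 28.4 FPKM with SAR, so most of the difference in the sum was ADAM19 itself. The family's median log2 fold change was 0.06, below the median of all tested genes, and it was -0.08 after rescaling.

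**Figure D2:**
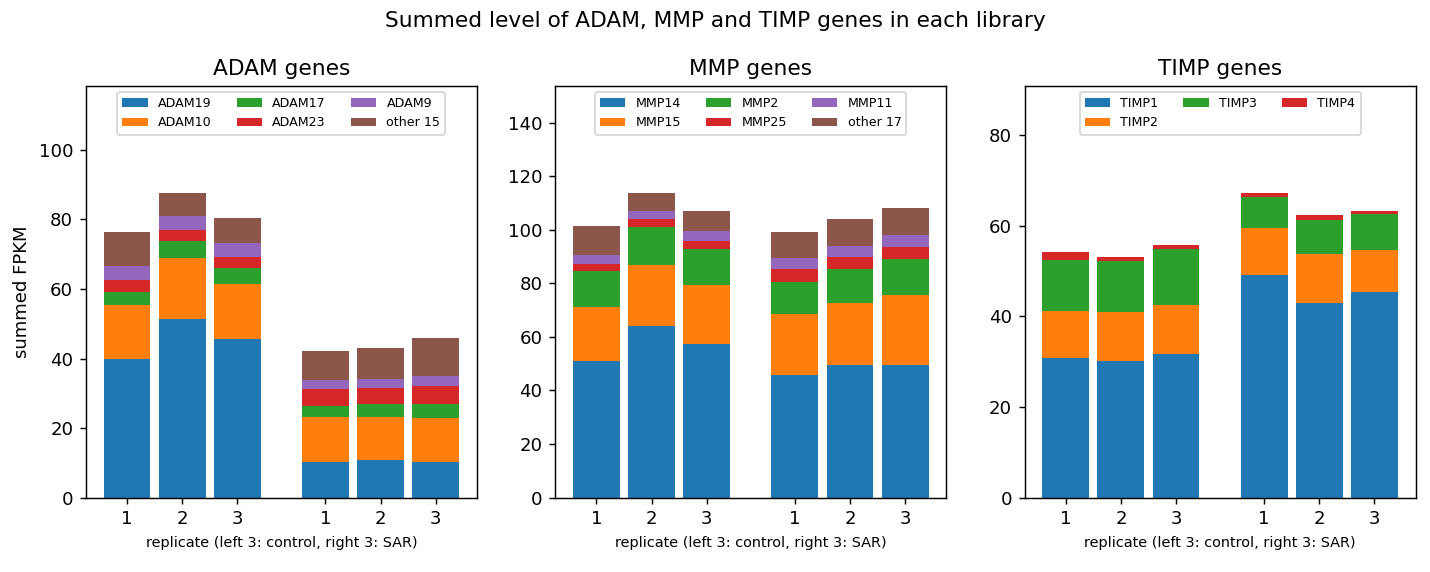
Stacked bars of the summed FPKM of the ADAM, MMP and TIMP genes in each library, with the left 3 bars of each panel for control and the right 3 for SAR, and the colours for single genes. The ADAM sum is lower in all SAR libraries through the ADAM19 segment, the MMP sums overlap between the groups, and the TIMP sum is higher with SAR through TIMP1 while the TIMP3 segment is smaller.

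The secreted ADAMTS proteases changed in both directions. ADAMTS16, a protease known from kidney and gonad that can cleave fibronectin, stood at 1.25, 0.775 and 0.651 FPKM in control replicates 1, 2 and 3 and at 2.89, 2.58 and 3.31 FPKM in the SAR replicates. All SAR libraries lay above the highest control library, which was control replicate 1. It rose by 1.65 on the log2 scale (SE 0.224, adjusted p = 0.00306) and stayed upregulated in every alternative run, from 1.06 with a pseudocount of 1 to 1.89. ADAMTS16 (ENSG00000145536) spans chr5:5140330-5320304 on the plus strand, and ADAM19, ADAMTS12, ADAMTS19, ADAMTS2 and ADAMTS6 lie on the same chromosome.

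ADAMTSL5, a fibrillin-binding ADAMTS-like protein, stood at 0.466, 0.396 and 0.512 FPKM in control and at 1.32, 1.08 and 1.14 FPKM in SAR libraries. The groups did not overlap, and it rose by 1.20 on the log2 scale (SE 0.182, adjusted p = 0.00434). The call on fold size was lost with a pseudocount of 1, where the log2 fold change was 0.58, and the gene was under a minimum mean of 1 FPKM. Its span (ENSG00000185761) is chr19:1505018-1513604 on the minus strand. ADAMTSL4, which also binds fibrillin, stood at 0.901, 0.707 and 0.618 FPKM in control and at 0.690, 0.688 and 0.710 FPKM in SAR libraries, with no call (log2 fold change -0.07, adjusted p = 0.811) and a sign that turned to 0.06 without control replicate 1. The other 3 ADAMTSL genes were under the minimum level.

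Among the ADAMTSs that cleave aggrecan and versican, ADAMTS1 and ADAMTS4 were lower and ADAMTS9 was higher. ADAMTS1, the most abundant ADAMTS here, stood at 13.6, 14.3 and 13.5 FPKM in control and at 9.55, 9.97 and 10.2 FPKM in SAR libraries. It fell by 0.48 on the log2 scale (SE 0.0546, adjusted p = 0.00178), with no overlap. ADAMTS9 stood at 1.11, 1.39 and 1.22 FPKM in control and at 2.35, 2.44 and 2.60 FPKM with SAR, close to the fold threshold at a log2 fold change of 0.94 (SE 0.111, adjusted p = 0.00191), and it passed that threshold at 1.02 without control replicate 2. ADAMTS4 stood at 1.81, 1.83 and 1.62 FPKM against 1.31, 1.36 and 1.43 FPKM (log2 fold change -0.34, adjusted p = 0.0424). This call was lost when any library except SAR replicate 3 was left out, and the adjusted p reached 0.131 among the alternatives.

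ADAMTS8, ADAMTS15 and ADAMTS20 of the same subfamily did not pass, at log2 fold changes of -0.47, 0.33 and -0.38. For ADAMTS8 every SAR library was nevertheless below every control library, at 0.492 to 0.656 against 0.692 to 1.06 FPKM. ADAMTS5, a major aggrecanase of cartilage, was under the minimum level at 0.189 to 0.313 FPKM. ADAMTS1 and ADAMTS5 are neighbours on chromosome 21, 72.5 kb apart, as are ADAMTS8 and ADAMTS15 on chromosome 11, 19.98 kb apart on opposite strands.

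ADAMTS7 and ADAMTS12, which cleave cartilage oligomeric matrix protein, were higher in every SAR library than in any control library. ADAMTS12 stood at 3.49, 4.02 and 3.66 FPKM in control and at 6.45, 6.45 and 6.62 FPKM in SAR libraries, and it rose by 0.79 on the log2 scale (SE 0.0717, adjusted p = 0.000906). ADAMTS7 moved less, from 5.89 to 6.08 FPKM in control to 6.41 to 7.25 FPKM with SAR, and did not pass (log2 fold change 0.20, adjusted p = 0.0595). Its difference was 0.06 after median-ratio rescaling.

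Of the remaining ADAMTS genes, ADAMTS10 and ADAMTS19 were higher. ADAMTS10, which acts on fibrillin-1 microfibrils, stood at 1.34, 1.26 and 1.45 FPKM in control and at 2.68, 2.18 and 1.98 FPKM with SAR (log2 fold change 0.71, SE 0.132, adjusted p = 0.00868). ADAMTS19, known from heart valves, stood at 3.76, 3.12 and 3.63 FPKM against 5.09, 4.77 and 4.84 FPKM (log2 fold change 0.48, SE 0.0865, adjusted p = 0.00792). The groups did not overlap in either gene. ADAMTS13, the von Willebrand factor protease, had a log2 fold change of 0.56 and ADAMTS18 one of -0.45, and neither passed (adjusted p = 0.0605 and adjusted p = 0.0662). ADAMTS6 did not pass either (0.18), and its sign turned under quantile normalization, at -0.01. The procollagen N-propeptidases ADAMTS2, ADAMTS3 and ADAMTS14 had log2 fold changes of 0.34, -0.13 and 0.23, none of which passed. ADAMTS14 was the member just above the minimum level, at a mean of 0.527 FPKM, and its highest library was control replicate 1 at 0.828 FPKM. Over the family, 5 of 17 tested ADAMTS genes were higher and 2 lower, against 23.7% and 9.55% of all tested genes. The median log2 fold change was 0.23 in the family and 0.12 over all tested genes. After median-ratio rescaling these medians were 0.12 and -0.02.

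**Figure D3:**
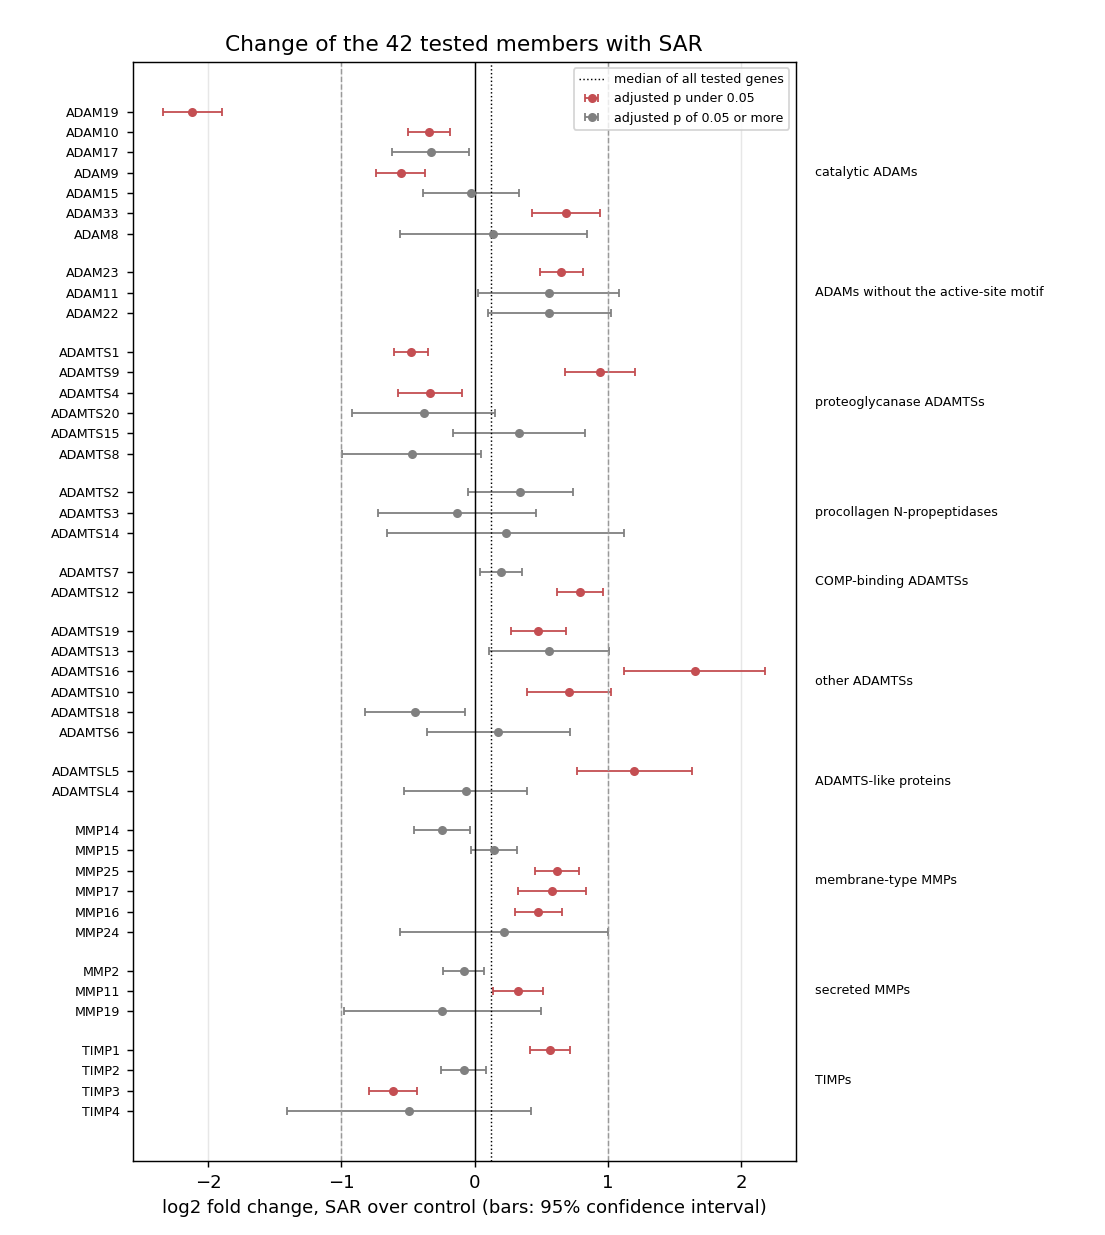
Log2 fold change of SAR over control with its 95% confidence interval for the 42 tested members by role, with red for an adjusted p under 0.05, the dotted line at the median of all tested genes (0.12) and dashed lines at the fold threshold. ADAM19 lies beyond the lower dashed line, and ADAMTS16 and ADAMTSL5 beyond the upper one.

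All 6 membrane-type MMPs were detected, and 3 of them were higher with SAR, against 23.7% of all tested genes. MMP25 (MT6-MMP), which is held in the membrane by a lipid anchor, stood at 2.91, 2.89 and 3.17 FPKM in control and at 4.75, 4.65 and 4.50 FPKM in SAR libraries (log2 fold change 0.62, SE 0.0699, adjusted p = 0.00172). Of its exon bases 35.2% also lie in the antisense gene MMP25-AS1, and the strand setting of the counting is not given in the sources used here. MMP17 (MT4-MMP), also lipid-anchored, stood at 3.27, 2.51 and 2.62 FPKM against 4.26, 4.10 and 4.25 FPKM (log2 fold change 0.58, SE 0.108, adjusted p = 0.00872). MMP16 (MT3-MMP) stood at 2.24, 2.26 and 2.25 FPKM against 3.08, 3.10 and 3.35 FPKM (log2 fold change 0.48, SE 0.0735, adjusted p = 0.00458). All 3 lay higher in every SAR library than in any control library, as did 5815 of all 16371 tested genes. None of these 3 MMPs reached the fold threshold. Genes on the opposite strand also covered exon bases of MMP24 (21.8%), MMP9 (18.4%), MMP19 (17.4%), ADAMTSL4 (14.4%) and TIMP4 (10.3%).

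MMP14 (MT1-MMP), the collagenase that activates pro-MMP2 at the cell surface, was the most abundant member and did not pass. It stood at 51.0, 64.2 and 57.4 FPKM in control and at 45.7, 49.7 and 49.6 FPKM in SAR libraries. Every SAR library was below every control library, with a log2 fold change of -0.25 (95% interval -0.46 to -0.03, adjusted p = 0.0736), and it passed after median-ratio rescaling, at -0.38 (adjusted p = 0.0383). MMP15 (MT2-MMP), at 20.4 to 22.5 FPKM in control and 22.6 to 26.0 FPKM with SAR, had no overlap but did not pass (log2 fold change 0.14, adjusted p = 0.168). The MMP15 log2 fold change was 0.004 after median-ratio rescaling. MMP24 overlapped widely between the groups, at 0.646 to 1.41 and 0.740 to 1.51 FPKM.

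Of 16 secreted MMPs, 3 were detected. MMP2 (gelatinase A), the substrate of the MMP14 and TIMP2 complex, stood at 13.1, 14.3 and 13.4 FPKM in control and at 12.3, 12.6 and 13.6 FPKM in SAR libraries. The groups overlapped, and the log2 fold change of -0.08 had a 95% interval of -0.23 to 0.07. MMP11 (stromelysin-3), which furin activates inside the cell, rose from 3.15, 3.12 and 3.45 FPKM to 4.20, 3.81 and 4.27 FPKM (log2 fold change 0.33, adjusted p = 0.0206). This call was lost after median-ratio rescaling and under quantile normalization. It was also lost without control replicate 1, control replicate 2 or SAR replicate 1. MMP19 did not pass (-0.24). Over all 22 MMP genes the summed level was 101.4 to 113.9 FPKM in control and 99.2 to 108.0 FPKM in SAR libraries, which overlapped.

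The inhibitors TIMP1 and TIMP3 changed in opposite directions. TIMP1, a broad inhibitor of secreted MMPs and of ADAM10, stood at 30.9, 30.2 and 31.6 FPKM in control and at 49.1, 42.9 and 45.4 FPKM with SAR, and it rose by 0.56 on the log2 scale (SE 0.0622, adjusted p = 0.00159). TIMP3, which binds the matrix and also inhibits ADAM17 and the aggrecanases, stood at 11.1, 11.2 and 12.4 FPKM in control and at 7.003, 7.600 and 8.032 FPKM with SAR, and it fell by 0.61 on the log2 scale (SE 0.0760, adjusted p = 0.00229). Neither gene overlapped between the groups, so that the ratio of TIMP1 to TIMP3 was 2.54 to 2.78 in control and 5.65 to 7.01 in SAR libraries.

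TIMP2, the bridge between MMP14 and pro-MMP2, stood at 10.3, 10.8 and 10.9 FPKM in control and at 10.3, 10.7 and 9.23 FPKM with SAR, and did not pass (log2 fold change -0.08, 95% interval -0.25 to 0.09). TIMP4 stood at 1.87, 0.892 and 0.843 FPKM against 0.904, 1.09 and 0.455 FPKM, with control replicate 1 setting most of its control level, and did not pass (log2 fold change -0.49, adjusted p = 0.352). TIMP1, TIMP3 and TIMP4 lie within the spans of SYN1, SYN3 and SYN2 on the opposite strand. These synapsin genes were at 0.702 to 1.78 FPKM, as high as TIMP4 itself but far below TIMP1 and TIMP3. The summed TIMP level was 53.1 to 55.8 FPKM in control and 62.3 to 67.3 FPKM in SAR libraries. The ratio of summed MMP to summed TIMP levels was 1.87, 2.15 and 1.91 in control and 1.47, 1.67 and 1.71 in SAR libraries, and all SAR values lay below all control values, a description with no test.

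The 28 members under the minimum level had 0.0122 to 0.391 FPKM on average. MMP9 (gelatinase B) was just under it, at 0.645, 0.386 and 0.385 FPKM in control and 0.231, 0.303 and 0.396 FPKM with SAR, with 72 reads over the control and 38 over the SAR libraries. Control replicate 1 was the highest library in 24 of these 28 members, while it was the highest in 32.3% of the 24025 genes under the minimum. All 28 were above 0 in control replicate 1, and 17 to 19 in each other library. With all genes fitted and no filter, 0 of the 28 passed by limma, the only tool run on them (lowest adjusted p = 0.0543, for MMP10), and 2 had an unadjusted p under 0.05, MMP10 and MMP20.

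**Figure D4:**
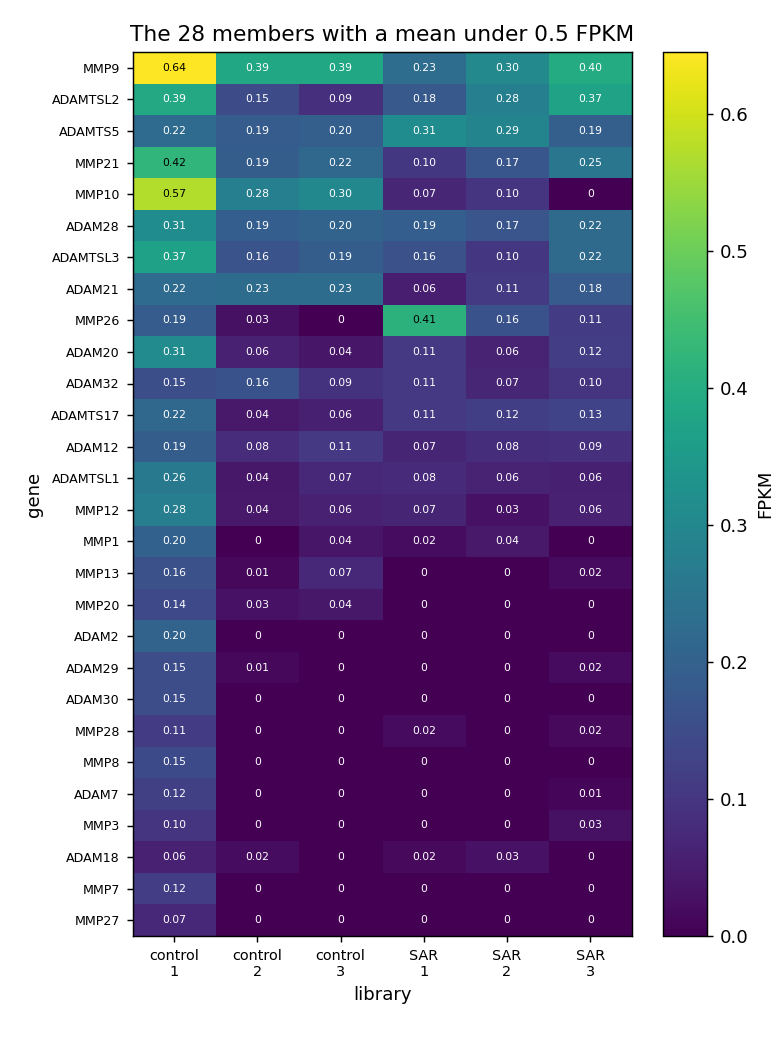
FPKM of the 28 members with a mean under 0.5 FPKM in each of the 6 libraries, as colour and as printed values, with genes in order of their mean. The first column, control replicate 1, holds the highest value in 24 of the 28 genes, and MMP9 has the highest mean.

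A block of 9 MMP genes on chromosome 11 (MMP7, MMP20, MMP27, MMP8, MMP10, MMP1, MMP3, MMP12 and MMP13, chr11:102520508-102955734, 435 kb) was under the minimum level throughout, and each of its genes was highest in control replicate 1. This block holds the interstitial collagenases MMP1, MMP8 and MMP13 and the stromelysins MMP3 and MMP10. MMP10 had the most reads, at 22, 12 and 10 in control and 2, 3 and 0 in SAR libraries, or 0.571, 0.279 and 0.301 FPKM against 0.0682, 0.101 and 0 FPKM. All its control libraries lay above all SAR libraries, with 44 reads in all against 5. MMP20 had 8, 2 and 2 reads in control and 0 in SAR libraries. With a floor of 3 reads over the group in place of 0, this was 3.19-fold lower per read sequenced. Without control replicate 1 it was only 1.60-fold lower. MMP8 had 11 reads, all in control replicate 1. The ratios for MMP20 allow only for the counting error of the 0 and take the control reads as exact, so they are not lower limits.

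The AP-1 motif (TGANTCA, which reads alike on both strands), the site of the FOS and JUN factors known from MMP promoters, was found in the 250 bases before the start in 4 of the 43 members with a RefSeq promoter entry, or 9.3%, against 6.57% of all 35116 promoters. MMP1, MMP3, MMP12 and MMP13 of the chromosome 11 block, and MMP9, had no such entry and were not searched. MMP8 and MMP27 of the block were searched and held no match. The windows around the AP-1 matches are shown 5′ to 3′ on the gene's strand, with the match in capitals. All of them lie on the minus strand of GRCh38.p14, and 3 of the 4 genes belong to the chromosome 11 block.
MMP7: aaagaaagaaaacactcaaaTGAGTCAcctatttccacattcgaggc
MMP10: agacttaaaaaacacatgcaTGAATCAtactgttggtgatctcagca
MMP20: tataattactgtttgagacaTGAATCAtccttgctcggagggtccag
ADAMTS12: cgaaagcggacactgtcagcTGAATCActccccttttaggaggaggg
The windows lie at chr11:102530788-102530834, chr11:102780669-102780715, chr11:102625418-102625464 and chr5:33892048-33892094. The match began 67 bases before the start in MMP7 and MMP10, 112 bases before it in MMP20 and 84 bases before it in ADAMTS12. MMP7 was listed at 0 in every library but control replicate 1, while ADAMTS12 was higher with SAR. The TEAD motif (GGAATG, on either strand) was found in ADAM17, ADAMTS6, ADAMTS12 and ADAMTS20, again 9.3%, against 11.9% of all promoters.

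Of 76 genes that act with these proteases or are related to them, 46 were tested. The 8 lists held inhibitors, activators, partners, substrates, regulators and 13 related genes, mostly zinc metalloproteases, with PAPLN and MME among these 13. Of the 46 tested genes, 11 had an adjusted p under 0.05 whichever library was left out. Upregulated were 5 (PAPLN, BGN, SPOCK3, SERPINF2 and SPOCK2) and downregulated 0, against 3.41% and 1.58% of all tested genes. Without a minimum fold 14 of the 46 were higher and 6 lower, against 23.7% and 9.55% of all tested genes. The median log2 fold change of the 46 was 0.07, against 0.12 over all tested genes.

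PAPLN (papilin), a matrix protein related to the ADAMTS-like proteins and not itself a protease, stood at 0.581, 0.324 and 0.365 FPKM in control and at 2.46, 2.81 and 2.60 FPKM in SAR libraries, and it rose by 2.41 on the log2 scale (SE 0.201, adjusted p = 0.000683). BGN (biglycan), a small proteoglycan, stood at 1.73, 1.16 and 1.30 FPKM against 5.91, 5.92 and 7.60 FPKM (log2 fold change 2.14, adjusted p = 0.000522). Both groups of libraries were far apart in these genes. The larger ADAMTS substrates versican (VCAN, -0.15) and fibronectin (FN1, 0.27) did not pass.

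Inhibitors outside the TIMPs also moved apart. The testican genes SPOCK2 and SPOCK3, of which testican-3 is known as an inhibitor of membrane-type MMPs and testican-2 as a protein that lifts this inhibition, rose by 1.17 and 1.21 on the log2 scale (adjusted p = 0.0108 and adjusted p = 0.00597), and SPOCK1 fell by 0.36 (adjusted p = 0.0257), which held only in the full set and without SAR replicate 3. RECK, a membrane-anchored inhibitor of MMPs and ADAM10, was higher in every SAR library, at 4.66 to 5.22 against 4.31 to 4.57 FPKM, but did not pass (adjusted p = 0.146). Its log2 fold change was 0.15, and 0.009 after median-ratio rescaling. The activator FURIN, which cuts the prodomains of many ADAMs, ADAMTSs and membrane-type MMPs, overlapped between the groups at 16.2 to 18.4 and 16.0 to 17.9 FPKM.

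Among the partners that carry ADAM10 and ADAM17 to the surface, 5 of 9 tested were higher, against 23.7% of all tested genes. None of the 5 reached the fold threshold, and TSPAN5, TSPAN15 and TSPAN33 held without any 1 library. TSPAN5, a tetraspanin that binds ADAM10, stood at 2.89, 2.91 and 2.94 FPKM in control and at 5.83, 5.74 and 5.52 FPKM with SAR (log2 fold change 0.94, SE 0.0612, adjusted p = 0.000332). TSPAN15, TSPAN33 and TSPAN12 rose by 0.58, 0.48 and 0.28 on the log2 scale, as did FRMD8, a partner of the iRhom proteins that escort ADAM17, by 0.44. The iRhom genes RHBDF1 (-0.16) and RHBDF2 (-0.08) did not pass. ADAM10 itself was lower, as given above. Of the 3 tested EGF-family ligands, EGF fell from 6.92, 7.57 and 6.80 FPKM to 3.88, 3.58 and 4.43 FPKM (log2 fold change -0.83, adjusted p = 0.00171), and HBEGF and TGFA did not pass.

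In the plasminogen system, which activates several pro-MMPs, SERPINF2, the inhibitor of plasmin, rose by 1.19 (adjusted p = 0.0209), and the receptor PLAUR rose by 0.64 (adjusted p = 0.0451), and both were lost without control replicate 2 or 3 or SAR replicate 1 or 2. SERPINE2, a serpin that inhibits plasminogen activators, stood at 69.0, 80.2 and 76.9 FPKM in control and at 66.1, 58.7 and 64.2 FPKM in SAR libraries, with no overlap and a log2 fold change of -0.26 (adjusted p = 0.0395), a call that was lost when any library except control replicate 1 was left out. The activator genes PLAU and PLAT did not pass.

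Of 12 tested inducers of MMP transcription, JUN fell from 129.1, 120.5 and 112.7 FPKM to 77.2, 81.5 and 89.2 FPKM (log2 fold change -0.55, adjusted p = 0.00331) and ETS1 fell by 0.62 (adjusted p = 0.00128). FOSB, JUNB and BSG rose by 0.46, 0.32 and 0.19 on the log2 scale, and each of these 3 was lost without at least 4 of the libraries in turn. FOS (0.41), FOSL1 (-0.54) and FOSL2 (-0.51) did not pass.

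**Figure D5:**
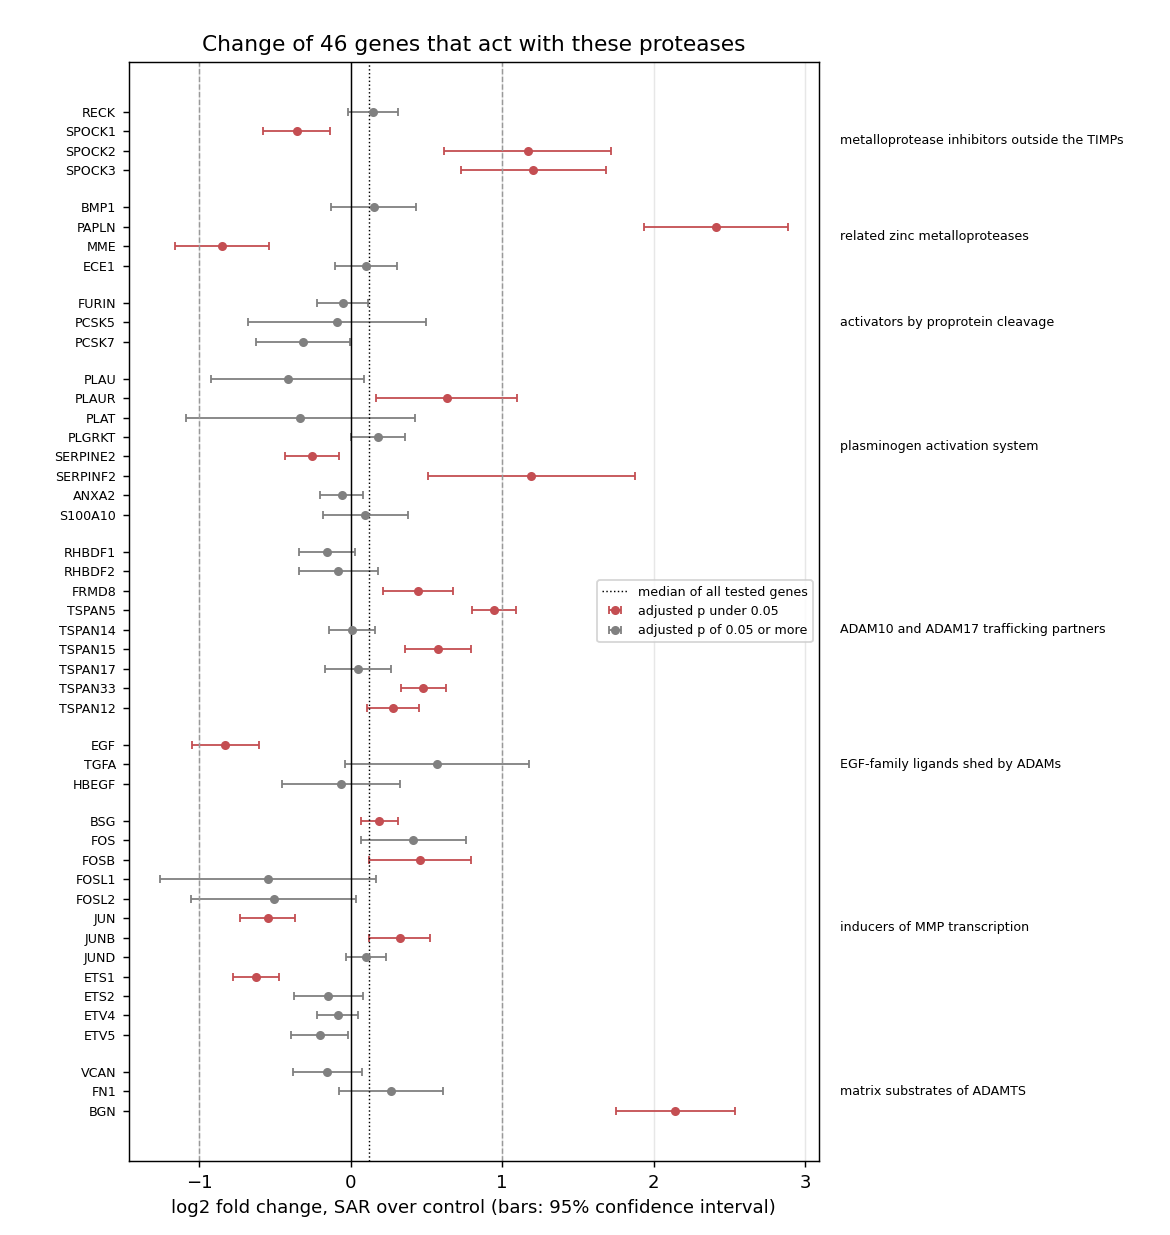
Log2 fold change of SAR over control with its 95% confidence interval for the 46 tested list genes, by list. These genes act with the proteases or are related to them. Red is for an adjusted p under 0.05, with the dotted line at the median of all tested genes and dashed lines at the fold threshold. PAPLN and BGN lie farthest to the right, at 2.41 and 2.14, and MME farthest to the left, at -0.85.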

How the data were processed

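The authors' deposited table held FPKM values of 6 poly(A) libraries, sequenced as paired-end reads per the methods. The authors' processing notes name HISAT2, featureCounts, Subread, DESeq2 and GRCh38.p13. The annotation release and the strand setting are not given in the sources used here. The members and lists were chosen with earlier results of these data known.

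Values of genes at or above a mean of 0.5 FPKM were fitted as log2(FPKM + 0.1) with limma 3.58.1 in R 4.3.3 (intensity trend, two-sided, Benjamini-Hochberg adjustment), since FPKM values are not counts. Named were members with an adjusted p under 0.05, the 3 highest of each protease family, all TIMPs, untested members from 0.25 FPKM and called list genes. Other genes were added after their values were seen, and 1 listed gene is not reported here. Whole reads were recovered from the FPKM steps and the exon lengths of GENCODE 29 (lengths whole within 0.05 bases for 99.995% of genes, equal to the GENCODE 29 exon union for 58.8%, so that the scale of the read totals rests on these genes, summed FPKM 270606 to 293045). The fit was tested on simulated data, and coordinates are GENCODE 29 (GRCh38).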

Additional observations from a re-analysis of the deposited data

How the results depend on the processing

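The calls were recomputed under 16 alternatives, of which the fit of recovered reads with voom was chosen after the data were seen. Upregulated members numbered 1 with a pseudocount of 1 and with a minimum mean of 1 FPKM, and 13 without a minimum fold, where downregulated members numbered 6. Upregulated list genes numbered 2, 2 and 14 under these settings, and downregulated ones 6 without a minimum fold. Leaving out 1 library gave 2 to 3 upregulated and 1 downregulated members, and 4 to 5 upregulated list genes. With an adjusted p under 0.05 alone, 12 to 14 members were higher and 5 to 8 lower. Same-numbered libraries deviated with correlations of 0.0729, 0.00286 and 0.0247, and not every library correlated best with its own number, so they were not treated as pairs. With the number as a replicate block, 2 members were upregulated and 1 downregulated, and 13 were higher and 7 lower. With voom 17 were higher and 9 lower. ADAMTSL4, at -0.07, ranged from -0.18 to 0.065 with 1 library left out, and its sign turned without control replicate 1. The log2 ratios of summed FPKM were -0.90 (ADAM), 0.18 (ADAMTS), -0.05 (MMP) and 0.24 (TIMP), and -1.04, 0.044, -0.19 and 0.10 after median-ratio rescaling. Quantile normalization gave 0.060 for ADAMTS. The causes were not tested. Of 27 named members, 19 kept their direction, their side of the adjusted p threshold and their call on fold size under every alternative run, and ADAM17, ADAMTS7, ADAMTS4, MMP14 and MMP11 crossed the adjusted p threshold in at least 1. Members under 0.5 FPKM, at 3 to 153 reads over the control libraries, allow no firm comparison at this depth.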
